A study of Mus musculus with 2 samples.

Results

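The gasdermin C genes are a cluster of near-identical paralogs on mouse chromosome 15, and 4 of the 31053 genes in the deposited matrices belong to it by symbol: Gsdmc, Gsdmc2, Gsdmc3 and Gsdmc4. They were chosen by the difference of their transcripts between the libraries described here, so the difference between the libraries is given as a description and not as a test. The other gasdermins, the proteases that cleave them and the pathways around them were read from lists that do not contain these 4 genes.

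Gasdermins are kept inactive by their carboxy-terminal domain. When a protease cuts the linker, the amino-terminal domain is released, assembles into pores in the plasma membrane and lets cytokines and other cell contents out, in some settings killing the cell by pyroptosis. In the mouse small intestine Gsdmc2, Gsdmc3 and Gsdmc4 are best known as epithelial genes induced by the type 2 cytokines IL-4 and IL-13 through STAT6 during worm infection, and as genes of absorptive cells leaving the crypt. Humans carry a single GSDMC gene, whose product has been reported to be cut by caspase-8.

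The cells came from the jejunum and were sorted by flow cytometry for GFP. All mice were Lgr5-eGFP-IRES-CreER animals, in which a reporter and a tamoxifen-dependent recombinase are driven from the Lgr5 stem cell locus. The mice received either an Fc control protein or an antagonist of FZD5 and FZD8, Frizzled receptors for Wnt ligands that maintain crypt stem cells. The labels call the mice of both groups female and 10 to 12 weeks old and give 3 mice per condition, pooled in 1 library per condition, made with the 10x Genomics 3′ chemistry. How much antagonist was given, and for how long, is not stated in the sources used here. With 1 library per condition there was no replicate, so no test was made: intervals are exact 95% intervals that cover counting error only, and each difference is one between these libraries.

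After a filter of at least 500 genes and at most 20% mitochondrial UMIs (unique molecular identifiers, the counted molecules), 11263 of 12672 control barcodes (88.9%) and 11019 of 13085 antagonist barcodes (84.2%) were kept, with 66206242 and 54328008 UMIs. Cells had a median of 4478 UMIs in the control and 2732 in the antagonist library, so shares of cells with a UMI are given after each cell was thinned to 3000 UMIs. The epithelial markers summed to 4712 and 4821 CPM (UMIs per 1000000 kept UMIs), while the T cell markers summed to 3.096 and 3.460 CPM and all 5 stroma markers were at 0 in the antagonist library. The stem markers of the sorted population summed to 4512 and 955 CPM in control and antagonist; Lgr5 itself was at 66.2 and 3.09 CPM. The sex-linked transcripts of the control library went against its female label. Xist was at 1.33 CPM in the control and at 512 CPM in the antagonist cells, and 4 Y-linked genes summed to 106 and 5.60 CPM. Sex of the mice and treatment therefore cannot be told apart in any difference below. The libraries shared 145 barcodes, of which 67 passed the filter in both, and those 67 barcodes held 3 control and 225 antagonist gasdermin C UMIs. Without them the log2 ratio of the summed family was 3.04 in place of 3.06.

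In GRCm38 the 4 genes lie head to tail on the minus strand of chromosome 15: Gsdmc at chr15:63775968-63808759, Gsdmc2 at chr15:63824346-63845177, Gsdmc3 at chr15:63857724-63878558 and Gsdmc4 at chr15:63891264-63912297, 136330 bases from end to end. The GENCODE M21 annotation places 3 transcribed pseudogenes, Gsdmcl1, Gsdmcl2 and Gsdmcl-ps, on the opposite strand among and beside them; these were not analysed here. Gsdmc2, Gsdmc3 and Gsdmc4 each have a coding length of 1443 bases and Gsdmc one of 1407 bases. Gsdmc2 and Gsdmc3 were identical at 97.1% of aligned coding bases, and each was identical to Gsdmc4 at 93.8%. Gsdmc stood further away, at 87.0 to 88.1% identity. The last 90 coding bases of the 3 closest paralogs are shown as an example of their likeness. They lie in coding exons at chr15:63824878-63824967, chr15:63858271-63858360 and chr15:63891804-63891893 and end in the stop codon. After the stop codon the transcripts of Gsdmc2, Gsdmc3 and Gsdmc4 run on for 532, 544 and 540 bases. The bases shown thus lie upstream of the windows at the 3′ end that are compared below. Capitals mark the 5 positions at which the 3 genes do not all have the same base.
Gsdmc2: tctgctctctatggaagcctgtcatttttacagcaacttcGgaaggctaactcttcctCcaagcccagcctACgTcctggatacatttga
Gsdmc3: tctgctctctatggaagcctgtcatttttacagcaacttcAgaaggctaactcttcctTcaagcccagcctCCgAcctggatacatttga
Gsdmc4: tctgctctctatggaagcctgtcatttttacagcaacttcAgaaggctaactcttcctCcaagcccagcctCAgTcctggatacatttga

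This likeness limits how far the paralogs can be counted apart. In the last 500 bases of the transcripts, 125 of 410 windows of 91 bases in Gsdmc2 (30.5%) also occurred in another gene, most often Gsdmc3. The same held for 72 windows of Gsdmc3 (17.6%), 41 of Gsdmc (10.0%) and 0 of Gsdmc4. Gsdmc4 is thus the member whose 3′ end can be told from the others at every window of 91 bases, and Gsdmc2 and Gsdmc3 are the pair whose counts are the least certain. No source used here says how reads that match several genes were counted, so each result is also given for the sum of Gsdmc2, Gsdmc3 and Gsdmc4.

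**Figure D1:**
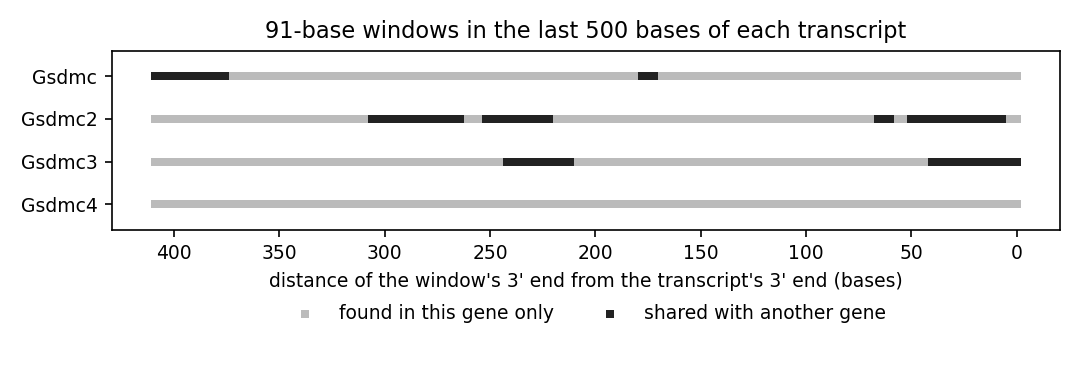
Each row is 1 gasdermin C transcript and each mark a 91-base window in its last 500 bases, placed by the distance in bases of the window's 3′ end from the transcript's 3′ end. Dark windows also occur in another gene: there are 125 in Gsdmc2, 72 in Gsdmc3, 41 in Gsdmc and 0 in Gsdmc4.

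For the region upstream of the genes, the RefSeq promoter table (GRCm38.p6) held an entry for 1 of the 4 members, Gsdmc3. Its 250 bases before the transcription start, chr15:63878559-63878808 read on the minus strand, are shown because the paralogs differed between the libraries together.
Gsdmc3: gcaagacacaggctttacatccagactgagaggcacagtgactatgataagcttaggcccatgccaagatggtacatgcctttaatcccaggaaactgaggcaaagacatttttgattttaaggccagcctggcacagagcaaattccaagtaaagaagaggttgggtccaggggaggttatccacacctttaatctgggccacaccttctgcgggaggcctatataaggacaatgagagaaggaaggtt
The 300-base window from which this comes was searched on both strands for 7 motifs, in only the letters given below. None was found, so no base is in capitals. Other forms of these sites were not searched, and the printed bases hold tatataa near their end and tgataa further upstream. The letters TTCNNNNGAA, a STAT6 site, occur in 6.95% of the 32851 promoter windows of the same length, TTCNNNGAA, a STAT site, in 8.30%, and ATCAAAG, a TCF and LEF site at which Wnt signalling acts, in 3.73%. CAAAGTCCA, a site of the enterocyte regulator HNF4A, occurs in 0.475% of windows, and TTTATNG, a site of the intestinal factor CDX2, in 10.9%. AGATAA, one form of the site read by zinc finger factors of the GATA family, occurs in 11.2%. The core promoter letters TATAAA occur in 13.6%.

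Over all kept cells, Gsdmc2, Gsdmc3 and Gsdmc4 were 7.62- to 12.5-fold higher in the antagonist library, and Gsdmc was barely detected in either. Gsdmc4, the most abundant member, had 319 control UMIs (4.82 CPM) and 1995 antagonist UMIs (36.7 CPM), a ratio of 7.62 (interval 6.77 to 8.60). Gsdmc2 was at 2.02 CPM (134 UMIs) and 18.4 CPM (1000 UMIs), a ratio of 9.09 (7.59 to 10.97). Gsdmc3 was at 0.468 CPM (31 UMIs) and 5.87 CPM (319 UMIs), a ratio of 12.5 (8.66 to 18.8). All 3 intervals lie well above 1; that of Gsdmc2 overlaps both others, while that of Gsdmc3 starts just above the end of that of Gsdmc4. Gsdmc had 1 control UMI and 3 antagonist UMIs, too few for a ratio. Summed, Gsdmc2, Gsdmc3 and Gsdmc4 were at 7.31 and 61.0 CPM (484 and 3314 UMIs), a ratio of 8.34 (7.58 to 9.20). Of the 13757 genes with at least 20 UMIs over both libraries, 2.39% (329 genes) were at least 2-fold higher in the antagonist library; the 3 measured members are among them by the way they were chosen, with Gsdmc3 the 5th, Gsdmc2 the 7th and Gsdmc4 the 10th highest ratio. In bulk sums such as these, more cells with the transcript and more transcript per cell cannot be told apart.

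In CPM and also per kilobase of transcript, the order of the level was Gsdmc4, Gsdmc2, Gsdmc3 and Gsdmc in both libraries. With 3′ chemistry a UMI count need not grow with transcript length, so the values per kilobase are no better measure of level than CPM. They were 2.31, 0.974, 0.219 and 0.00628 CPM per kilobase in the control library. In the antagonist library the levels per kilobase were 17.6, 8.86, 2.74 and 0.0230 CPM. Gsdmc4 held the largest part of the family in both libraries, at 65.9% (61.5 to 70.1%) of the control and 60.2% (58.5 to 61.9%) of the antagonist UMIs of the 3 genes. Gsdmc2 held 27.7% (23.7 to 31.9%) and 30.2% (28.6 to 31.8%). Gsdmc3 held 6.40% (4.39 to 8.97%) and 9.63% (8.64 to 10.7%), and for each of the 3 genes the intervals of both libraries overlap. Such overlap does not show an equal make-up, as the ratio interval of Gsdmc3 given above starts past the end of that of Gsdmc4.

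**Figure D2:**
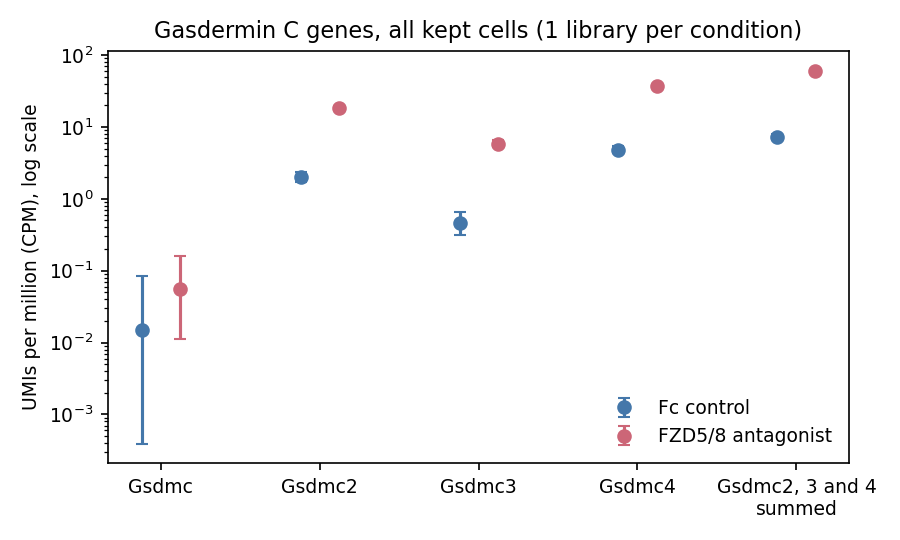
Level of each gasdermin C gene and of the sum of Gsdmc2, Gsdmc3 and Gsdmc4 in CPM (log axis), with 1 point per library and bars for the exact 95% Poisson interval. The antagonist points of Gsdmc2, Gsdmc3 and Gsdmc4 (18.4, 5.87 and 36.7 CPM) lie above the control points (2.02, 0.468 and 4.82 CPM), and the intervals of Gsdmc overlap.

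The transcripts were sparse. At 3000 UMIs per cell, a share of 1.84% of control cells (139 of 7536, interval 1.55 to 2.17%) and of 13.7% of antagonist cells (689 of 5036, 12.7 to 14.7%) had a UMI of Gsdmc2, Gsdmc3 or Gsdmc4; 3727 control and 5983 antagonist cells were too shallow to be thinned. Unthinned, the shares were 2.91% (328 cells) and 16.8% (1847 cells). Most positive cells had a single UMI, 251 of 328 in the control and 1226 of 1847 in the antagonist. The highest sum in a cell was 16 control UMIs and 27 antagonist UMIs. The 10 cells with the most UMIs held 14.9% of the family's control UMIs and 4.44% of its antagonist UMIs. In each of 5 ranges of cell depth the antagonist library was higher, by 5.90-fold in cells of 12000 UMIs or more to 19.5-fold in cells of 1500 to 3000 UMIs.

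To see which cells carried the transcripts, cells were sorted by sums of marker genes that include no gasdermin. Lineage gates for goblet, Paneth, tuft, enteroendocrine, apolipoprotein-rich enterocyte and brush border enterocyte markers came first, then gates for G2 and M phase, S phase, stem markers and Dmbt1, a scavenger receptor secreted by cells leaving the crypt. Each gate is a range on a score and not a cell type: for example, 892 control and 1181 antagonist cells had a Dmbt1 score within 20% of the threshold of 20 UMIs per 10000. The marker lists follow known cell types, but the thresholds were set on these data. In the Dmbt1-high gate control cells had a median stem score of 16.6 UMIs per 10000 and antagonist cells one of 7.61, and the median G2 and M phase score was 5.56 and 8.79. The sort for GFP and the depth gap may bear on how many cells each gate holds, which was not tested.

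In the control library, the summed level was highest in a small set of cells past the stem state. It was 57.4 CPM (46.6 to 70.0) in the Dmbt1-high gate, which held 246 cells or 2.18% of the library but 20.04% of its gasdermin C UMIs. It was 49.8 CPM (33.4 to 71.5) in the 52 cells of the brush border gate. The intervals of these gates overlap, and both lie above those of every other gate. Cells in no gate were at 13.3 CPM (9.81 to 17.5), the G2 and M phase gate at 8.33 CPM (7.02 to 9.82), the S phase gate at 7.09 CPM (5.41 to 9.13) and the stem marker-high gate, the largest with 5357 cells, at 3.24 CPM (2.57 to 4.03). The stem marker-high level lies below those of the cycling gates beyond counting error, while the S phase and the G2 and M phase levels do not differ beyond it. The apolipoprotein-rich gate, which holds the most mature enterocytes, had 1 UMI in 154 cells, 0.774 CPM. The secretory gates were low too, at 4.95 CPM (2.56 to 8.64) for goblet, 4.56 CPM for tuft, 5.66 CPM for enteroendocrine and 0.672 CPM for Paneth markers, the last 3 from 7, 2 and 2 UMIs. Cells past more than 1 lineage gate, a class in which doublets would fall, had 3 control UMIs (2.05 CPM) and 5 antagonist UMIs (11.1 CPM).

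In the antagonist library, transcripts of the family were spread over nearly every gate. The brush border gate was at 80.6 CPM (58.6 to 108), the Dmbt1-high gate at 70.9 CPM (66.5 to 75.5) and the G2 and M phase gate at 68.1 CPM (64.9 to 71.4), and these 3 neighbours in the order overlap. The S phase gate followed at 56.9 CPM (50.4 to 64.0), and cells in no gate at 53.2 CPM (44.2 to 63.5). Goblet cells by their gate were at 42.0 CPM (32.7 to 53.1), and the stem marker-high gate, now only 400 cells, at 27.2 CPM (17.0 to 41.2). The tuft gate at 25.0 CPM, the Paneth gate at 23.0 CPM and the apolipoprotein-rich gate at 18.4 CPM (12.3 to 26.4) had overlapping intervals. The enteroendocrine gate was at 8.47 CPM (1.03 to 30.6) from 2 UMIs. The G2 and M phase gate held 51.3% of the family's UMIs, against 29.3% in the control library, and the Dmbt1-high gate, with 3044 cells, held 29.1%. Of all kept UMIs, the G2 and M phase gate held 46.0% in the antagonist and 25.7% in the control library, and the Dmbt1-high gate held 25.1% and 2.55%.

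**Figure D3:**
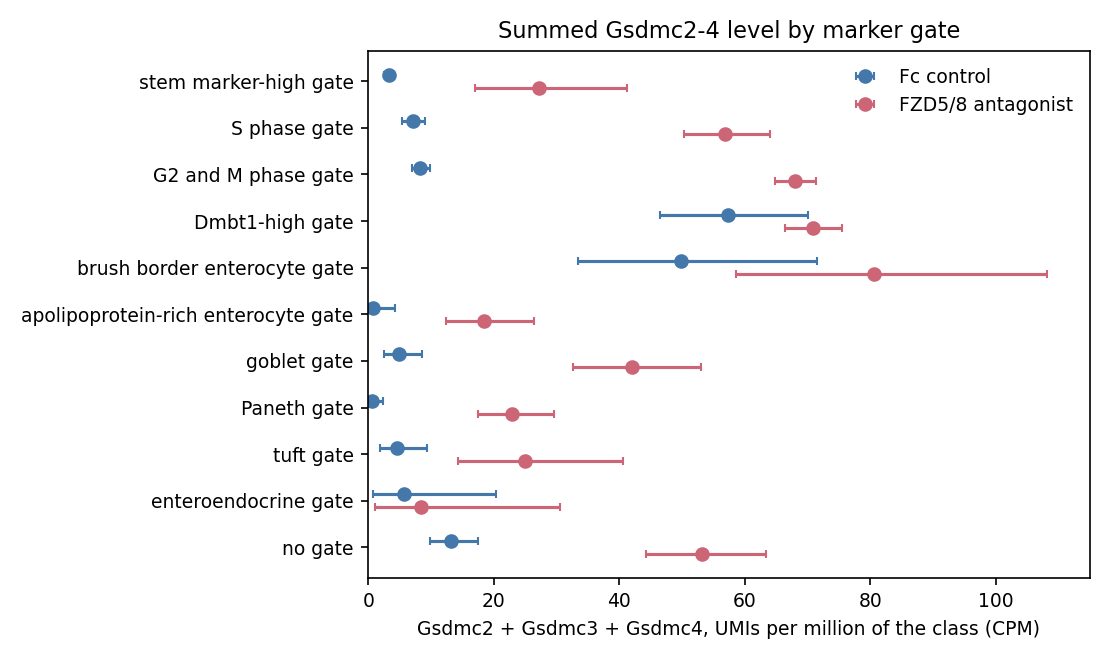
Summed level of Gsdmc2, Gsdmc3 and Gsdmc4 in CPM of each marker gate, with 1 point per library and bars for the exact 95% Poisson interval. The libraries lie far apart in the stem marker-high, S phase and G2 and M phase gates (3.24 against 27.2, 7.09 against 56.9 and 8.33 against 68.1 CPM) and close together in the Dmbt1-high gate (57.4 against 70.9 CPM).

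Gate by gate, the difference between the libraries was large in the cycling gates and small in the Dmbt1-high gate, where the control level was highest. The G2 and M phase gate did not hold like cells in both libraries. Its control and antagonist cells had Dmbt1 at 1453 and 4012 CPM and Olfm4 at 2343 and 337 CPM. Zg16, highest in the goblet gate, was at 15.9 and 1041 CPM there, and Apoa1, highest in the apolipoprotein-rich gate, at 10.2 and 164 CPM. The part of such differences in the gate ratios was not tested. In the G2 and M phase gate the summed ratio was 8.17 (6.88 to 9.76), with Gsdmc2 at 2.29 and 19.4 CPM, Gsdmc3 at 0.352 and 6.73 CPM and Gsdmc4 at 5.69 and 42.0 CPM. All 3 genes were at least 2-fold higher there, as were 4.84% of the 12151 genes measured in that gate. In the S phase gate the summed ratio was 8.02 (6.05 to 10.8), all 3 genes were at least 2-fold higher, and 1.65% of 10946 genes were. In the stem marker-high gate it was 8.40 (4.99 to 13.6) from 80 and 22 UMIs. Gsdmc2 and Gsdmc4 were at least 2-fold higher there, as were 5.54% of 11768 genes, and Gsdmc3 had 4 and 0 UMIs. In the Dmbt1-high gate, by contrast, Gsdmc2 was at 21.9 and 22.4 CPM, for a ratio of 1.02 (0.727 to 1.48). Gsdmc4 was at 31.4 and 41.2 CPM there, for a ratio of 1.31 (0.991 to 1.78), and Gsdmc3 at 4.14 and 7.19 CPM, for a ratio of 1.74 (0.811 to 4.43). None of the 3 was at least 2-fold higher in that gate, where 3.23% of 10912 genes were. Genes at least 2-fold lower were not counted by gate. The summed log2 ratio of the Dmbt1-high gate was 0.30 (0.00 to 0.62), and it moved to -0.056 with all gate thresholds divided by 2 and to 0.86 with all multiplied by 2. With thresholds multiplied by 2, the summed log2 ratio was also 1.38 in place of 3.00 in the S phase gate and 1.93 in place of 3.07 in the stem marker-high gate. At the reported thresholds, the intervals of the ratio in the Dmbt1-high gate and in the G2 and M phase gate are far apart. In the brush border gate the summed ratio was 1.62 (0.990 to 2.68), from 29 and 44 UMIs; its log2 value of 0.69 was 0.08 when cells were thinned to 3000 UMIs and 1.41 with thresholds divided by 2. The goblet gate had 12 and 69 UMIs, a ratio of 8.48 (4.56 to 17.2), and the Paneth gate 2 and 60 UMIs.

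Shares of cells at equal depth gave the same contrast between these gates. In the G2 and M phase gate, a UMI was found at 3000 UMIs in 2.31% of control cells (41 of 1775, interval 1.66 to 3.12%) and 14.6% of antagonist cells (279 of 1908, 13.1 to 16.3%). In the Dmbt1-high gate, it was found in 10.3% of control cells (17 of 165, interval 6.12 to 15.98%) and 15.4% of antagonist cells (204 of 1325, 13.5 to 17.5%), and these intervals overlap. In the brush border gate it was found in 23.7% of control cells (9 of 38) and 20.4% of antagonist cells (11 of 54). Free RNA in droplets can give a UMI to a cell that does not make the transcript, so the tuft gate, a lineage outside the absorptive one, was read as a floor: 1.17% of its control cells (2 of 171, interval 0.142 to 4.16%) and 5.97% of its antagonist cells (4 of 67, 1.65 to 14.6%) were positive. Median depths of the tuft gate before thinning were 4882 and 2075 UMIs. The stem marker-high gate of the control library, at 0.817% (27 of 3303 cells), was not above that floor, and the G2 and M phase share of 2.31% and the S phase share of 2.82% (30 of 1065 cells) also lay inside the control tuft interval. The control shares behind the ratios of 8.17 and 8.02 are thus within the range of that floor, which rests on 2 positive cells. In CPM the control tuft level was 4.56 (1.83 to 9.40). The control Paneth gate, at 0.672 CPM (0.0814 to 2.43), and apolipoprotein-rich gate, at 0.774 CPM (0.0196 to 4.31), were lower. Their intervals lie below those of the G2 and M phase (7.02 to 9.82) and S phase (5.41 to 9.13) gates. Which gate best measures free RNA was not tested. In the antagonist library the apolipoprotein-rich gate, at 6.09% (12 of 197 cells), was close to it, and the stem marker-high gate, at 7.79% (6 of 77 cells), the goblet gate, at 9.52% (18 of 189 cells), and the Paneth gate, at 10.0% (21 of 210 cells), lay within its interval. The S phase gate, at 14.3% (98 of 686 cells), lay within it too, and the G2 and M phase and Dmbt1-high gates, at 14.6% and 15.4%, lay at or just above its upper end of 14.6%. With 67 tuft cells, the floor of the antagonist library is known only within that interval.

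Dmbt1 itself was at 1080 CPM in control and 3803 CPM in antagonist cells. The Dmbt1-high gate, which takes only cells left by all other gates, held 2.18% and 27.6% of kept cells. More cells than these were past its threshold. Over all gates, 1201 control and 3569 antagonist cells had 20 to 40 Dmbt1 UMIs per 10000, and others had more. Cells were therefore compared at like Dmbt1 level, a comparison added after the gate levels were seen. In both libraries the summed gasdermin C level was lowest in the bins with the least Dmbt1 and mostly higher in bins with more, with dips in the G2 and M phase gate at 40 to 80 Dmbt1 UMIs per 10000 (antagonist) and from 80 upward (control, from 4 UMIs). In the G2 and M phase gate the antagonist library was still above the control library at 10 to 20 Dmbt1 UMIs per 10000 (11.6 and 35.2 CPM, ratio 3.03, 1.90 to 4.85), at 20 to 40 (14.5 and 71.5 CPM, ratio 4.95, 3.57 to 7.06) and at 40 to 80 (28.5 and 61.3 CPM, ratio 2.15, 1.55 to 3.05). In the other crypt gates the ratio was 4.62 (3.29 to 6.57) at 10 to 20 and 3.25 (2.48 to 4.34) at 20 to 40. At 40 to 80 it was 1.28 (0.951 to 1.74), from 53.2 and 67.9 CPM. With the Dmbt1 bins weighted alike in both libraries, the summed log2 ratio over all cells was 1.61 in place of 3.06, and with the marker gates weighted alike it was 1.93. Matching on Dmbt1 did not match the cells in other respects: in the G2 and M phase gate at 20 to 40, control cells had a median stem score of 30.9 UMIs per 10000 and antagonist cells one of 8.43. The part of the stem score in the remaining ratio was not tested.

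**Figure D4:**
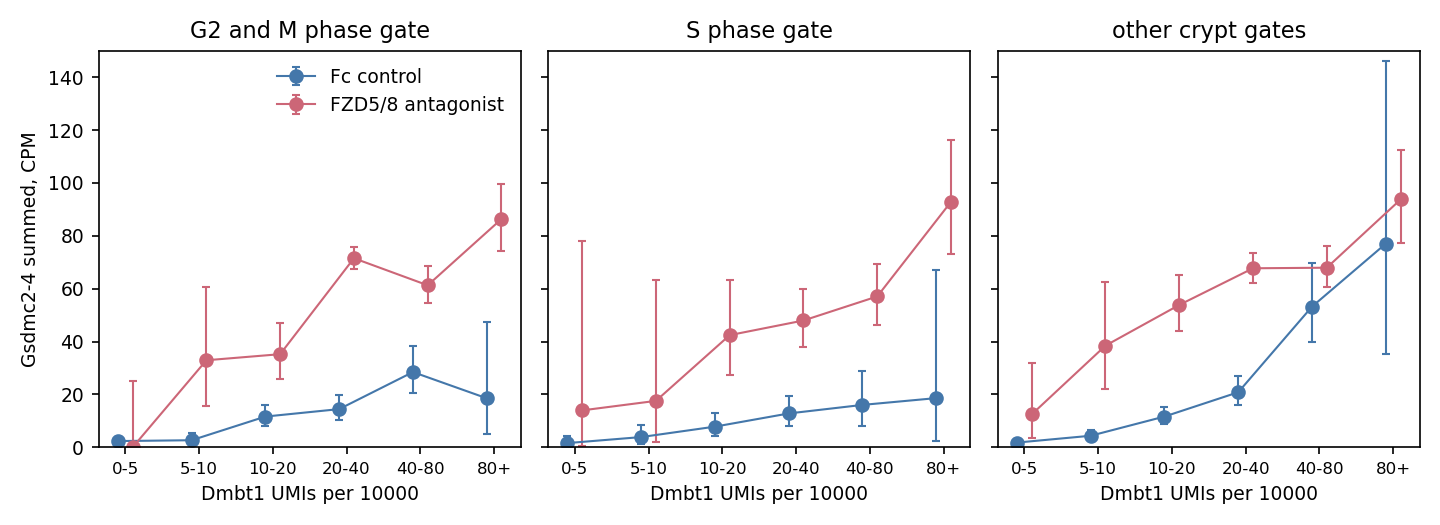
Summed Gsdmc2, Gsdmc3 and Gsdmc4 level (CPM) against the Dmbt1 level of the cell (UMIs per 10000, in 6 bins), for the G2 and M phase gate, the S phase gate and the other crypt gates, with 1 point per library and bin and exact 95% Poisson intervals. The level is mostly higher at higher Dmbt1 in both libraries, and among bins from 20 upward the intervals of the libraries overlap in the upper 2 bins of the other crypt gates (53.2 and 67.9 CPM at 40 to 80).

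The paralogs tended to be found in the same cells. Among antagonist cells at 3000 UMIs, 252 had a UMI of Gsdmc2 and 447 a UMI of Gsdmc4, and 55 had both, where the product of the shares gives 22.4, a ratio of 2.46 (1.85 to 3.20). For Gsdmc3 and Gsdmc4 there were 18 cells with both, a ratio of 2.86 (1.69 to 4.51), and for Gsdmc2 and Gsdmc3 there were 15, a ratio of 4.22 (2.36 to 6.96). Within the G2 and M phase gate alone the ratio for Gsdmc2 and Gsdmc4 was 2.23 (1.40 to 3.38). As a background, the same ratio with Gsdmc4 had a median of 1.05 and a 95th percentile of 1.40 over the 4255 genes found in a like share of antagonist cells. In the control library 4 cells had both Gsdmc2 and Gsdmc4 against 0.543 from the product, a ratio of 7.37 (2.01 to 18.9) that rests on those 4 cells. Without thinning, 78 of 1847 positive antagonist cells (4.22%) and 4 of 328 positive control cells (1.22%) had all 3 paralogs. Doublets were not removed, and the part of shared 3′ sequence in the pair Gsdmc2 and Gsdmc3 was not tested. Gsdmc4 has 0 shared windows at 91 bases, but at 50 bases 36 of its 451 windows (7.98%) occur in another member, 23 in Gsdmc2 and 24 in Gsdmc3.

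Gsdmd and Gsdme were at nearly equal levels in both libraries. Gsdmd, the pore former cut by inflammatory caspases, was at 14.95 and 14.27 CPM in the control and antagonist libraries, a ratio of 0.954 (0.867 to 1.05). Gsdme was at 9.43 and 8.84 CPM, for a ratio of 0.937 (0.831 to 1.06). Of the 6 gasdermins outside group C, 3 were measured and 0 were past 2-fold in either direction, against 2.39% of all genes at least 2-fold higher and 8.83% at least 2-fold lower; their median log2 ratio was -0.09, beside -0.15 over all genes, and changed sign to 0.04 with median-ratio scaling and to 0.14 with the gates weighted alike. Gsdma2, the third, was at 0.604 and 0.350 CPM (40 and 19 UMIs), for a ratio of 0.579 (0.317 to 1.02). Gsdma had 6 and 1 UMIs, Pjvk had 2 and 3, and Gsdma3 had 0 in each library.

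Gsdmd and the gasdermin C genes also differed in where they were found along the absorptive lineage. In the control library Gsdmd was at 172 CPM (150 to 196) in the apolipoprotein-rich gate, against 0.774 CPM for the summed gasdermin C genes. In the Dmbt1-high gate the order was the opposite, with Gsdmd at 13.0 CPM (8.16 to 19.7) and the gasdermin C sum at 57.4 CPM. The brush border gate held both, Gsdmd at 68.7 CPM (49.1 to 93.6) and gasdermin C at 49.8 CPM. In the antagonist library these first 2 gates had the same arrangement, with Gsdmd at 162 CPM (143 to 183) in the apolipoprotein-rich gate and 10.2 CPM (8.57 to 12.0) in the Dmbt1-high gate. Its brush border gate had Gsdmd at 40.3 CPM (25.3 to 61.0) and gasdermin C at 80.6 CPM (58.6 to 108). In the G2 and M phase gate, where gasdermin C had a ratio of 8.17, Gsdmd was at 8.45 and 8.69 CPM, for a ratio of 1.03 (0.829 to 1.28).

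**Figure D5:**
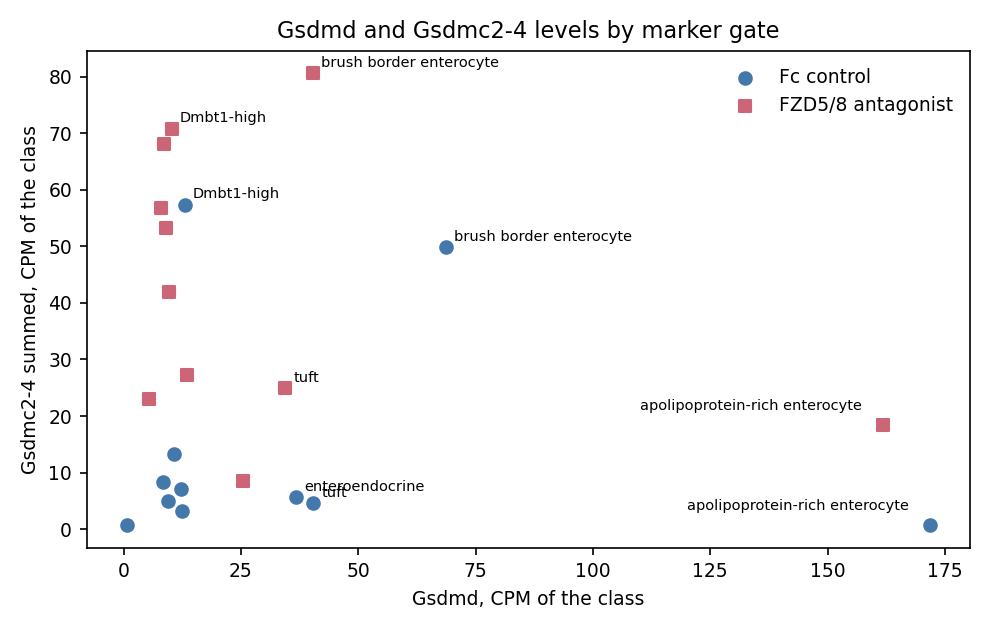
Level of Gsdmd (CPM, horizontal) against the summed Gsdmc2, Gsdmc3 and Gsdmc4 level (CPM, vertical), with 1 point per marker gate and library. The apolipoprotein-rich gate has the highest Gsdmd (172 and 162 CPM) with 0.774 and 18.4 CPM of gasdermin C, and the Dmbt1-high gate has 57.4 and 70.9 CPM of gasdermin C with 13.0 and 10.2 CPM of Gsdmd.

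Proteases that can cut gasdermins were present in both libraries. Casp6 was at 59.7 and 84.1 CPM, for a ratio of 1.41 (1.35 to 1.47). Casp8, whose human counterpart has been reported to cut GSDMC, was at 38.2 and 41.2 CPM, for a ratio of 1.08 (1.02 to 1.14). Gzma, a granzyme of cytotoxic lymphocytes, was past 2-fold with 28 and 65 UMIs, and is named here after its value was seen. In the inflammasome list, 1 of 12 measured genes was at least 2-fold higher, Nlrp1b with 38 and 64 UMIs, also named after its value was seen, and 0 were lower, against 2.39% of all genes higher and 8.83% lower. That count was 0 with the gates weighted alike and when cells were thinned to 3000 UMIs. The median was 0.16, beside -0.15 over all genes. Pycard, the adaptor ASC that links sensors to caspase-1, was at 777 and 1336 CPM, for a ratio of 1.72 (1.70 to 1.74). Il18, a cytokine released through gasdermin pores, was at 21.9 and 28.1 CPM. The epithelial sensor Nlrp6 was lower, at 145 and 87.0 CPM, and Ninj1, which ruptures the membrane of dying cells, was at 30.8 and 25.3 CPM.

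Type 2 cytokines are known to induce gasdermin C in the intestine. Of 11 measured genes of IL-4, IL-13 and STAT6 signalling, 0 were past 2-fold in either direction, against 2.39% of all genes higher and 8.83% lower. The median log2 ratio was -0.35, beside -0.15 over all genes, and -0.22 with median-ratio scaling. The receptor chain Il13ra1 was at 17.3 and 21.6 CPM (ratio 1.24, 1.15 to 1.35). The kinase Jak1 was at 85.9 and 68.1 CPM, and the transcription factor Stat6 at 39.7 and 29.3 CPM (ratio 0.738, 0.693 to 0.786). Ogt, the enzyme that adds O-GlcNAc to proteins, was at 157 and 89.5 CPM. Among 13 measured genes that type 2 responses induce or that mark tuft and goblet cells, 1 was at least 2-fold higher and 1 at least 2-fold lower, against the same 2.39% and 8.83% of all genes. Those 2 genes past 2-fold became 4 when cells were thinned to 3000 UMIs. The median of this list was -0.02, with the sign changing under median-ratio scaling (0.12), with the gates weighted alike (0.47) and, to 0.00, when thinned. The higher gene was Clca1, a secreted goblet cell protein, at 23.1 and 70.5 CPM, and Fcgbp, a mucus protein, was at 255 and 450 CPM. The lower gene was Mptx2, a Paneth cell pentraxin, at 239 and 119 CPM, and Ang4, an antimicrobial ribonuclease, was at 253 and 161 CPM. Retnlb, the goblet cell resistin-like protein most often used to mark a type 2 response, was at 2.75 and 1.75 CPM. Transcript levels of receptors and STAT6 do not measure the pathway's activity.

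For TGF-beta signalling, 0 of 10 measured genes were at least 2-fold higher and 2 at least 2-fold lower, against 2.39% and 8.83% of all genes, with a median of -0.54 beside -0.15 over all genes. With median-ratio scaling 1 gene was past 2-fold. The lower genes were the receptor Tgfbr2, at 10.9 and 4.45 CPM, and the ligand Tgfb1, with 28 and 11 UMIs, both named after their values were seen. The receptor Tgfbr1 was at 21.3 and 13.9 CPM and the SMAD corepressor Tgif1 at 41.3 and 21.9 CPM. The feedback inhibitors Skil and Smad7 were at 29.2 and 37.4 CPM and at 20.8 and 23.1 CPM.

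Gasdermin C transcripts are known from the lower villus, and genes of that zone were described in the same way. The list was chosen with earlier results of these data known, so its counts are a description only. Of 25 measured villus-bottom absorptive genes, 8 were at least 2-fold higher and 2 at least 2-fold lower, against 2.39% and 8.83% of all genes, and the median log2 ratio was 0.63, beside -0.15 over all genes. With the gates weighted alike, the 10 genes past 2-fold became 5 and the median was 0.23. Rbp7, a retinol-binding protein, was at 19.0 and 94.2 CPM (ratio 4.96, 4.66 to 5.28), and Arg2, the mitochondrial arginase, at 48.3 and 210 CPM (ratio 4.35, 4.19 to 4.53). The lower genes were the antimicrobial lectins Reg3b, at 1355 and 333 CPM, and Reg3g, at 1470 and 404 CPM. Of 15 villus-tip genes, 4 were at least 2-fold higher and 1 at least 2-fold lower, beside the same shares of all genes, with a median of 0.08. With the gates weighted alike, these 5 became 1 and the median changed sign to -0.06. Creb3l3, a regulator of lipid genes, was at 17.1 and 37.4 CPM and the keratin Krt20 at 18.2 and 36.7 CPM. The early response genes Fos and Junb were at 28.6 and 20.5 CPM and at 23.0 and 18.4 CPM. The villus-bottom list holds Dmbt1, which also defines a gate, and shares Nlrp6 and Il18 with the inflammasome list.

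Over the 24 levels formed by 12 classes of cells in 2 libraries, the gene whose log2 level was most like the summed gasdermin C level among 5838 genes was Rbp7, with a Pearson r of 0.90. It was followed by Dmbt1 (0.87), Bmp3, a BMP family ligand (0.86), Itpka, an inositol trisphosphate kinase (0.85), Tfrc, the transferrin receptor (0.82), and Pycard (0.81). Slco2b1, an organic anion transporter, Insig1, which retains the sterol sensor SCAP, Mal2, a protein of transcytosis, and Cdk2ap2 completed the 10, at 0.79 to 0.80. The points share libraries, depth and cell make-up, and Dmbt1 itself defines a gate, so r describes likeness over these levels and no more. Over the 12 antagonist classes alone, r was 0.90 for Itpka, 0.84 for Pycard, 0.82 for Cdk2ap2, 0.79 for Rbp7 and Mal2, 0.75 for Bmp3, 0.73 for Slco2b1, 0.70 for Tfrc, 0.62 for Dmbt1 and 0.47 for Insig1. Of these 10 genes 1, Itpka, was among the 10 most like there.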

How the data were processed

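Single-cell RNA was measured in 1 library per condition. The authors deposited UMI counts for each gene in each barcode, made with Cell Ranger (version 3.1.0 per the file headers); the submitters' processing notes name the builds GRCm38 and mm10. Filtered barcodes were deposited; further filtering by the authors is not given in the sources used here. Every per-sample column was used.

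Barcodes were kept from 500 genes upward and up to 20% mitochondrial UMIs, leaving 66206242 and 54328008 UMIs. No doublet caller was run. Levels are summed UMIs per 1000000 kept UMIs (CPM). Intervals are exact at 95%: Poisson for levels, conditional binomial for ratios and Clopper-Pearson for shares. A ratio was called past 2-fold for genes with at least 20 UMIs over both libraries, adding 0.5 to each sum. For shares and co-detection, cells were thinned to 3000 UMIs with a fixed seed. A gate required at least 3 marker UMIs and a threshold per 10000 UMIs: goblet 200, Paneth 1000, tuft 20, enteroendocrine 20, apolipoprotein-rich 100, brush border 30, G2 and M phase 20, S phase 15, stem 30 and Dmbt1 20. Cells past more than 1 lineage gate formed a class of their own. Genes named were the members, the 2 highest and 2 lowest ratios of each list among genes of at least 20 CPM in a library, the 10 genes most like the summed level in log2(CPM + 1), and fixed check genes; others are marked where they appear. Some results of the protease list are not reported here. The members and lists were chosen with earlier results of these data known. Alternatives covered the cell filter, scaling, thinning, weighting, gate thresholds and gene minimum. The interval code was tested on simulated data. Python 3.11.15, numpy 2.4.6, scipy 1.17.1, biopython 1.88 and matplotlib 3.10.9 were used. Sequences came from GENCODE M21 on GRCm38 and from RefSeq on GRCm38.p6.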

Additional observations from a re-analysis of the deposited data

How the results depend on the processing

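Of 117 alternative values, 87 stayed within the interval of the reported value or within 1.5 times a reported count, 29 moved outside it and 1 changed sign. No paired analysis was possible because each condition has 1 library. The 3 paralogs kept a higher level in the antagonist library under all 12 alternatives run over all cells. Their log2 ratios moved most when the gates were weighted alike (Gsdmc2 1.86, Gsdmc3 2.31, Gsdmc4 1.92, sum 1.93, against 3.18, 3.65, 2.93 and 3.06) or the Dmbt1 bins were (1.62, 2.15, 1.53 and 1.61). With each cell weighing the same, Gsdmc3 was at 4.24, the sum at 3.27 and the sum in the G2 and M phase gate at 3.37 against 3.03. With gate thresholds multiplied by 2, the summed log2 ratio was 1.93 in the stem marker-high gate against 3.07, 1.38 in the S phase gate against 3.00 and 0.86 in the Dmbt1-high gate against 0.30; divided by 2, it was -0.056 in the Dmbt1-high gate. The difference in the share of positive cells was 11.8 percentage points at 3000 UMIs, 4.70 at 1000 UMIs and 13.8 without thinning, and the co-detection ratio of Gsdmc2 and Gsdmc4 was 3.65 without thinning. With no minimum beyond 1 UMI, 1633 genes were at least 2-fold higher and 3254 lower; with at least 100 UMIs, 687 were lower. Of the 10 genes most like the summed level, 1 was shared with the antagonist library alone. Over the 12370 genes with at least 20 UMIs in each library, used for median-ratio scaling, the median log2 ratio was -0.13 (it was -0.15 over the 13757 genes measured), so this scaling shifts every ratio up by that amount. Depth limits the gates with few UMIs, among them the enteroendocrine gate with 2 in each library.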

Other observations

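Cells with a gasdermin C UMI were compared with cells without one among the stem marker-high, S phase, G2 and M phase, Dmbt1-high and ungated cells at 3000 UMIs, as a description within each library; intervals cover counting error only, and genes were named by rank of the difference after the values were seen. In the control library 123 positive and 6631 negative cells differed along the stem to absorptive axis and in other marker lists. The pooled gates were set in part by the stem and Dmbt1 markers, so differences in those markers are not separate from the gate levels above. In the control, 27 of 3303 stem marker-high cells and 17 of 165 Dmbt1-high cells were positive. Rbp2, a retinol-binding protein of enterocytes, was at 314 CPM in positive and 77.2 CPM in negative cells (ratio 4.07, 3.34 to 4.92). Chp2, a regulator of sodium-proton exchange, was at 70.5 and 15.3 CPM, and Arg2 at 100 and 30.6 CPM. Dmbt1 was at 2626 and 1074 CPM and Fabp1, the fatty acid-binding protein, at 317 and 128 CPM. Stem cell genes were lower in positive cells: Ascl2, a stem cell transcription factor, was at 24.4 and 81.4 CPM (ratio 0.300, 0.137 to 0.570), Gkn3 at 67.8 and 194 CPM and Soat1 at 92.1 and 280 CPM. The stem marker list summed to 3247 and 5514 CPM (ratio 0.589, 0.556 to 0.623). The G2 and M phase list did not go with the stem list, at 1846 and 1496 CPM, nor did the S phase list, at 1149 and 906 CPM. The tuft list was at 29.8 and 12.5 CPM (ratio 2.39, 1.18 to 4.35).

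In the antagonist library the same contrast was flatter, with 620 positive and 3638 negative cells. Olfm4, the secreted crypt base marker, had the largest difference among genes lower in positive cells, at 215 and 340 CPM (ratio 0.630, 0.567 to 0.699), and Hopx was at 162 and 233 CPM. The stem list summed to 780 and 1033 CPM (ratio 0.755, 0.714 to 0.797). Unlike in the control library, the S phase list (918 and 980 CPM) and the G2 and M phase list (1926 and 2061 CPM) were lower in positive cells. Among genes higher in positive cells, Tm6sf2, a lipoprotein secretion factor, was at 55.4 and 33.4 CPM, the receptor kinase Erbb2 at 69.4 and 43.3 CPM and Spink1 at 103 and 67.1 CPM. Lmna and Mvp were among the 10 most different genes in both libraries. Dmbt1 was at 5091 and 4532 CPM (ratio 1.12, 1.10 to 1.15), against 2.44 (2.29 to 2.61) in the control library. Goblet and Paneth marker lists were higher in positive cells of the antagonist library (2153 and 1777 CPM, 9810 and 8134 CPM) and lower in those of the control library (317 and 436 CPM, 5856 and 6324 CPM).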
